A study of Mus musculus with 3264 samples.

Results

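The 10 genes described here encode 4 S100 proteins (S100a4, S100a6, S100a10 and S100a11), 3 annexins (Anxa1, Anxa2 and Anxa5) and 3 galectins (Lgals1, Lgals3 and Lgals7). They were taken as a fixed list of gene symbols, and all 10 are rows of both deposited tables, which hold 24781 genes for cell line wells and 25051 genes for blood wells. The list was drawn up because S100a4, S100a6 and Lgals7 were seen to be nearly absent from T cells picked after time-lapse imaging, so that difference is given below as a description only. RNA was counted in single mouse cells placed in wells of 96-well plates by ALPS, an automated system that picks living cells under a microscope, or by FACS (fluorescence-activated cell sorting). The mixture held mouse lines that the labels do not name, of leukemia, T and HPC (hematopoietic progenitor) type, and the labels give no strain, treatment or genotype for them. From this mixture, cells were picked at random on 4 plates (random wells), by type on 4 plates (target wells), after time-lapse imaging on 16 plates (time-lapse wells) and by FACS on 2 plates. On 8 further plates ALPS had placed PBMC (peripheral blood mononuclear cells) taken from C57BL/6J mice, also after time-lapse imaging. The labels name no culture or animal, so each group counts as 1 sample. No test was run and no p-value is given. The labels do not tell whether plates share a culture or animal, so the spread between plates is not read as a spread between either.

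S100 proteins are small calcium sensors that usually work as pairs and, on binding calcium, expose a surface that grips partner proteins. Annexins are calcium-dependent proteins that bind the inner face of membranes rich in acidic phospholipids and take part in membrane repair, vesicle traffic and the tethering of actin to membranes. The families meet in defined complexes: S100a10 (p11) holds a pair of Anxa2 molecules at the membrane, and S100a11 binds Anxa1 in a similar way. Galectins bind galactose-containing sugar chains on glycoproteins, inside and outside the cell. In blood cells, S100a4 and S100a6 are known from activated and memory T cells and from myeloid cells, Lgals1 is raised in activated T cells, Lgals3 is a macrophage gene, and Lgals7 is best known from stratified epithelium such as skin.

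The genes of the S100 proteins lie on mouse chromosome 3 (build mm10, that is GRCm38, GENCODE M21 annotation). S100a4 (chr3:90603771-90606045) and S100a6 (chr3:90612882-90624181), both on the plus strand, are 6.84 kb apart, with S100a5 between them. S100a11 (chr3:93520488-93526287) and S100a10 (chr3:93555080-93564643) form another pair, 28.8 kb apart and also on the plus strand. Anxa5 (chr3:36448923-36475894, minus strand) is on the same chromosome, whereas Anxa1 is at chr19:20373428-20390944 (minus) and Anxa2 at chr9:69453620-69491795 (plus). The galectin genes are all on the plus strand, Lgals1 at chr15:78926725-78930465, Lgals3 at chr14:47367751-47386160 and Lgals7 at chr7:28863853-28866284. Annotated genes overlap Lgals7 (antisense Gm10648), Anxa2 (antisense Gm16144), Anxa1 (1500015L24Rik, opposite strand) and S100a4 (Gm42674, same strand). Whether the counting used strand is not given in the sources used here, so molecules of these pairs cannot be told apart. Of the positive Lgals1 values 14.2% were not whole numbers, against 0.448% to 5.67% in the other 9 members.

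Promoters are shown for the 3 genes that were low together in time-lapse T cells (RefSeq, GRCm38.p6, printed 5′ to 3′ on the gene's strand). Each was taken from the 250 bases before the RefSeq start and ended before any GENCODE exon base within them. The stretches are chr3:90603520-90603769 for S100a4, chr3:90612644-90612881 for S100a6 and chr7:28864136-28864228 for Lgals7, and capitals mark motif matches. The Lgals7 stretch lies inside the gene as GENCODE annotates it, which begins at chr7:28863853.
S100a4: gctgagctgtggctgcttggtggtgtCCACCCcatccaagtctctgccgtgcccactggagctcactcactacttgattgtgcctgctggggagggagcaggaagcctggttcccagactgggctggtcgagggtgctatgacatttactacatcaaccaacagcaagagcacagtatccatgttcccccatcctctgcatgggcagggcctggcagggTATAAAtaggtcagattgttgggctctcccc
S100a6: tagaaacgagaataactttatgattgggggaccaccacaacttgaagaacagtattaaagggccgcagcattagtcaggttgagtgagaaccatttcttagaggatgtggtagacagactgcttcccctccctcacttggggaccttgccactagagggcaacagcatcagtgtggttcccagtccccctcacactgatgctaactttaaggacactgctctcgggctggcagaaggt
Lgals7: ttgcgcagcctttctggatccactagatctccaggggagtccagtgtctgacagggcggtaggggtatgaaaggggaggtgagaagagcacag
A promoter entry was matched for 8 of the 10 members, all but S100a10 and Lgals1. The motifs looked for, on both strands in the 250 bases before the RefSeq start, were the TATA box (TATAAA), the AP-1 site (TGANTCA), the cAMP response element (TGACGTCA), the E-box (CACGTG) and the CACCC box (CCACCC), and no matches in members overlapped. The S100a4 promoter held a TATA box that begins 31 bases before the start and a CACCC box near the far end. TATAAA occurred in 12.4% and CCACCC in 28.1% of all 32851 promoters of this length. None of these letters occurred in the S100a6 and Lgals7 promoters. The AP-1 letters, in 6.75% of all promoters, occurred in those of S100a11 and Anxa2. S100a4, S100a6 and Lgals7 had 2, 3 and 5 CpG pairs in this window, against a median of 6 over all promoters. These matches describe the sequence only.

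Per plate, 30 to 34 leukemia, 24 to 33 T and 17 to 21 HPC wells were listed for target plates, and 14 to 39, 6 to 30 and 10 to 24 for time-lapse plates. Total counts per well ran from 10005 to 140363 in the cell line wells and had a median of 2147 in the PBMC wells that passed a minimum of 300 detected genes. Levels are given as CPM, counts per 1000000 counts summed over the wells of one kind on one plate. Because molecules are counted near the 3′ end, levels in CPM are compared only within a gene. Where shares of wells or evenness over wells are set side by side across members, they also depend on how well each gene is counted. Wells without a line label were given the line whose target profile they resembled most, with S100, annexin and galectin genes left out of the profile. By this measure all but 3 target wells kept their label, and those 3, labelled HPC on target plate 4, resembled leukemia (2) or T cells (1). In the FACS plates 60 wells resembled the line of their label, 23 leukemia, 24 T and 13 HPC, of 66, 68 and 45 listed, so FACS wells are given by class. The defining markers were present in the labelled lines: summed Cd7, Cmah, Cacna2d2, Cd160 and Hmgn1 reached 1969.2 to 2272.6 CPM in target leukemia wells, summed Thy1, Lck, Bcl11b and Lat reached 1335.8 to 1444.2 CPM in target T wells, and summed Cd34, Flt3, Sox4, Spi1, Hoxa9 and Plac8 1653.97 to 2322.02 CPM in target HPC wells. The leukemia markers also summed to 425.7 to 646.2 CPM in HPC wells, where Hmgn1 had a mean of 443.98 CPM, and the T markers to 67.8 to 102.3 CPM in leukemia wells.

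Each line had its own combination of members, and S100a4, S100a6 and Lgals7 all had their highest mean in the T line. S100a4, an S100 protein that binds non-muscle myosin, measured 518.97, 551.95, 877.2 and 800.2 CPM in T wells of target plates 1 to 4. In HPC wells it measured 414.9, 662.3, 496.6 and 478.98 CPM, and in leukemia wells 120.01, 104.5, 131.5 and 236.5 CPM. The T and HPC plates overlapped, and every leukemia plate lay below both. S100a6 (calcyclin), which binds the ubiquitin ligase adaptor Cacybp, measured 492.3, 541.4, 704.7 and 659.6 CPM in T wells and 160.9, 157.7, 140.97 and 150.2 CPM in HPC wells. In leukemia wells it measured 2.54, 2.9, 8.6 and 4.03 CPM, so the 3 lines were separate on every plate. Summed over plates, S100a6 was 135.96-fold higher in T than in leukemia wells (exact 95% interval 85.8 to 223.2, counting error only) and 3.92-fold higher than in HPC wells (3.52 to 4.37).

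The other S100 members, S100a10 and S100a11, had the opposite order. S100a10 measured 429.8, 408.8, 394.98 and 404.2 CPM in leukemia wells, 206.6, 313.9, 302.9 and 311.8 CPM in HPC wells, and 78.2, 76.4, 46.9 and 51.8 CPM in T wells. S100a11 measured 69.2 to 134.1 CPM in leukemia, 54.6 to 74.5 CPM in HPC and 4.64 to 16 CPM in T wells. T wells were the lowest on every plate for both genes, by 6.48-fold against leukemia for S100a10 (interval 5.74 to 7.35) and by 10.7-fold for S100a11 (7.87 to 14.9). These intervals cover counting error only, and the single plates spread wider for both genes.

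The annexins split in their turn. Anxa1, an annexin through which glucocorticoids damp inflammation, measured 32.9 to 46.4 CPM in leukemia, 47.4 to 70.9 CPM in HPC and 4.3 to 11.9 CPM in T wells. Anxa2, the partner of S100a10, measured 249.6, 260.8, 266.98 and 278.6 CPM in leukemia wells and 538.7, 512.01, 272.8 and 283.3 CPM in T wells. In HPC wells it measured 0, 0, 1.82 and 77 CPM. Of the 52 Anxa2 counts in HPC-labelled wells, 51 came from the 3 plate 4 wells that did not resemble HPC cells. Without them 1 of 70 HPC wells held an Anxa2 count and the level was 0.420 CPM, while S100a10 stayed at 289.4 CPM. HPC wells thus held S100a10 counts in 72 of 73 wells with almost no Anxa2, T wells held Anxa2 in every well with their S100a10 level below the other lines, and leukemia wells held both. Anxa5, an annexin used as a stain for exposed phosphatidylserine, measured 29 to 38.4 CPM in leukemia, 25.9 to 41.2 CPM in T and 9.06 to 16.9 CPM in HPC wells.

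Among the galectins, Lgals1 was found in every target well of the 3 lines. It measured 2473.7, 2463.2, 2989.7 and 2907.7 CPM in T wells, 1383.9 to 1602.8 CPM in leukemia and 1359.7 to 1768.3 CPM in HPC wells. The T plates lay above all others, by 1.85-fold against leukemia (interval 1.79 to 1.9, counting error only), and the other 2 lines overlapped. Lgals7 measured 146.9, 176.6, 264.2 and 201.4 CPM in T wells, where all but 1 of 120 wells had a count. It had 1 count in all leukemia wells together and 7 counts in 2 HPC wells, 6 of them in 1 of the wells that did not resemble HPC cells. Keratinocyte markers were at or near 0 beside it: the 11 listed genes summed to between 0 and 0.841 CPM on the T plates, with 9 of them, Krt10 and Krt14 included, at 0. Lgals3 had no count in any target well. The upper Clopper-Pearson bounds for its share of wells with a count were 2.89% in leukemia, 3.03% in T and 4.93% in HPC wells.

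**Figure D1:**
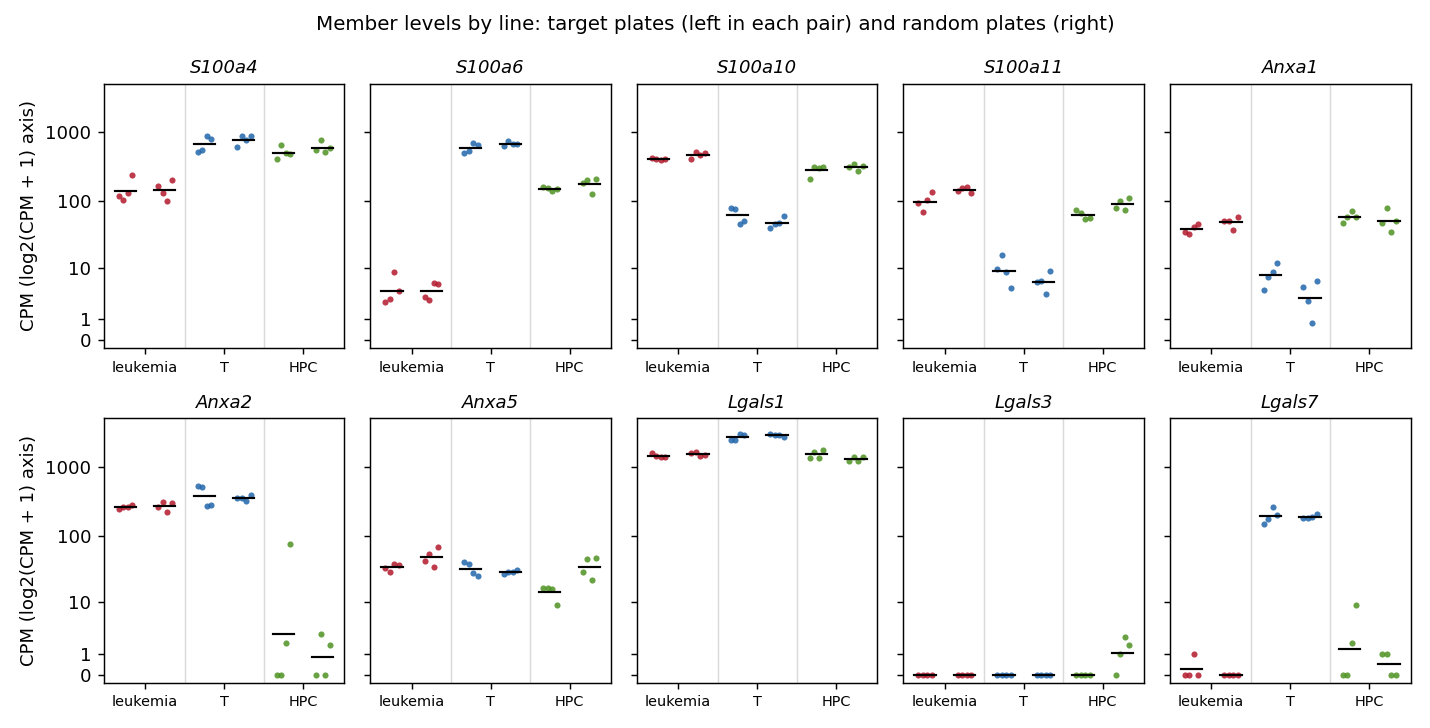
Level of each member in CPM on a log2(CPM + 1) axis, 1 point per plate, for leukemia (red), T (blue) and HPC (green) wells, with target plates on the left of each pair and random plates on the right; black bars are means of log2(CPM + 1). Lgals7 lies between 146.9 and 264.2 CPM in T wells of target plates and at or below 9.06 CPM in the other lines, and the single high Anxa2 point in HPC wells, 77 CPM, is target plate 4.

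A member was called higher or lower between lines where its mean log2 difference over plates was at least 1 in size (2-fold) with the same sign on every plate, among genes with at least 10 CPM on either side. This minimum was passed by 9 members for T against leukemia, 8 for HPC against leukemia and 9 for T against HPC. For T minus leukemia on target plates, S100a4 (log2 difference 2.24, range over plates 1.75 to 2.73), S100a6 (6.87, 6.20 to 7.12) and Lgals7 (7.35, 7.04 to 7.66) were called higher. S100a10 (-2.71), S100a11 (-3.32) and Anxa1 (-2.21) were called lower. That is 3 of 9 in each direction, where 14.8% of 8263 genes were called higher and 12.2% lower. The 3 called higher are the genes for which the list was drawn up. They had to be present in ordinary T wells to be seen lost, so nothing is read from how many were called higher in T wells. HPC wells were called higher than leukemia wells for S100a4 (1.84) and S100a6 (4.91) and lower for Anxa2 (-6.10) and Anxa5 (-1.20), against 13.1% and 12.7% of 8276 genes. For T minus HPC, S100a6 (1.96), Anxa2 (6.64), Anxa5 (1.14) and Lgals7 (6.39) were called higher and S100a10 (-2.16), S100a11 (-2.69) and Anxa1 (-2.78) lower, against 15.3% and 13.2% of 8452 genes. The Anxa5 calls did not hold with a pseudocount of 10 CPM (-0.85 and 0.81) or with all wells weighted equally (-0.81 and 0.72). The median difference over the members tested was 0.53 for T minus leukemia, -0.24 for HPC minus leukemia and 0.82 for T minus HPC, beside 0.01, -0.12 and 0.12 over all genes tested.

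The random plates, whose wells carry no line label, gave the same order for most members. S100a4, S100a6 and Lgals7 were picked on time-lapse against other T wells, so for them the random plates are not an independent repeat. T minus leukemia differences were 2.40 for S100a4, 7.08 for S100a6, 7.56 for Lgals7, -3.26 for S100a10, -4.42 for S100a11 and -3.63 for Anxa1, and these 6 were again called (background 14.9% higher, 12.8% lower). For HPC minus leukemia 2 members were called higher and 1 lower (background 16% and 11.8%), and for T minus HPC 4 and 3 (14.7% and 16.8%). The T minus HPC calls included Lgals1 (1.14), which missed the size on target plates (0.82). Anxa5 was the exception. It measured 22.5 to 47.8 CPM in random HPC wells, above every target HPC plate, and it was the 1 member called between random and target plates of that line (log2 difference 1.22), where 1.98% of 8073 genes were called higher and 0.0867% lower. Its HPC minus leukemia difference on random plates was -0.48 and not called. Of 37 random HPC wells with an Anxa5 count, 5 held 10 or more counts, and the 12 wells with most counts held 75.2% of them. No member was called between random and target plates in leukemia or T wells, where 0.132% and 0.155% of genes were called higher and 0.0396% and 0.0906% lower.

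Within a line, the members also differed in how evenly wells carried them. In target T wells, S100a6 ran from 4.5 to 85.5 counts per well with a median of 20, and S100a4 had a median of 24 counts with 1 well at 0. In leukemia wells S100a4 was patchy. Only 76 target leukemia wells had a count (60.3%, interval 51.2% to 68.9%) and 50 had none, the median was 1 count and the highest well had 56. The 13 wells with most counts held 62.7% of them, against 22.6% for S100a10 and 23.6% for Lgals1 in leukemia wells. Wells with and without an S100a4 count had similar depth, with median totals of 33346 and 31238. The 10% of wells with most S100a4 counts held 50.7% of them on random plates, 66.5% in FACS and 63.5% in time-lapse leukemia wells, and 23.4% in target T wells. In HPC-labelled wells 8 of 73 wells held 43.5% of the S100a6 counts, and the highest well, with 51 counts, was one of the 3 that did not resemble HPC cells. Without those 3, S100a6 was found in 56 of 70 wells with at most 27 counts, and 7 wells held 35% of them.

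FACS wells, placed without the imaging system, gave values by class in the same order as the picked wells for S100a6 and Lgals7. In T-classed FACS wells S100a4 measured 446.3 and 978.5 CPM on the 2 plates, S100a6 654.3 and 792.2 CPM and Lgals7 208.96 and 245.4 CPM. S100a10 measured 88.7 and 90 CPM there, Anxa2 644.3 and 373.5 CPM and Lgals1 2642.3 and 3621 CPM. Lgals7 was at 0 in all 63 leukemia-classed FACS wells and Anxa2 at 0 in all 52 HPC-classed ones, which allow a share of up to 5.69% and 6.85% of wells.

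S100a4, S100a6 and Lgals7 were nearly absent from T-classed wells picked after time-lapse imaging, the difference for which they were chosen. S100a6 measured 640.8, 750.2, 679.5 and 672.4 CPM on the random plates, where every T-classed well held at least 6 counts. On the 16 time-lapse plates its lowest, median and highest levels were 0, 0 and 0.836 CPM, and 4 wells (1.27%, interval 0.346% to 3.21%) held 1 count each. Lgals7 measured 181.99, 180.3, 185.9 and 205.9 CPM on the random plates and 0 to 6.53 CPM (median 1.58) on the time-lapse plates. S100a4 measured 619.1, 879.2, 769.5 and 893.7 CPM on the random plates and 0 to 41.4 CPM (median 18.3) on the time-lapse plates. No time-lapse plate reached the level of any random, target or FACS plate for these genes. The differences in log2(CPM + 1) were -9.25 for S100a6 (range over pairs of plates -9.55 to -8.45), -6.38 for Lgals7 (-7.69 to -4.59) and -5.64 for S100a4 (-9.81 to -3.87). Over summed counts, random wells were 3335.6-fold higher for S100a6 (1301.8 to 12249), 123.1-fold for Lgals7 (85.7 to 183.4) and 38.8-fold for S100a4 (35.1 to 43.1). These intervals cover counting error only. The random and time-lapse wells came from separate plates and differ in imaging, so plate and imaging cannot be told apart here.

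All 3 genes were low across the time-lapse T-classed wells, and these wells were not shallow. Every random and all but 2 of the target T wells held counts of all 3 genes, whereas 0 of the time-lapse T-classed wells did. Time-lapse T-classed wells had a median total of 58921 counts, above the 44508 of random and 37148 of target T wells. After thinning each well to 10000 counts, S100a4 was found in 11.7% of time-lapse T-classed wells against 100% of random T wells, and without thinning in 40.2% and 100%. S100a4 was the one of the 3 found most often, with up to 27 counts in a well.

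Other measured differences went with these. Thy1, a surface protein of T cells, had a count in 48 time-lapse T-classed wells (15.2%) and in 99.2% of random T wells. Summed Thy1, Lck, Bcl11b and Lat were at 457.7 to 790.9 CPM on time-lapse against 1504.05 to 1606.3 CPM on random plates, yet Lck, Bcl11b and Lat were found in 84.8%, 99.7% and 98.7% of the time-lapse wells. Of 31 genes specific to the T line, 16 were below 50% of their target level, and the median score over these genes was 74.1% of the target level against 95.9% in random T wells. The T class is the closest of 3 line profiles, and its median lead in correlation over the second closest was 0.118 here. This lead was 0.212 in random and 0.198 in target T wells, and 0.184 and 0.179 in time-lapse leukemia- and HPC-classed wells. Whether the time-lapse T-classed wells are of the same T line was not tested. Pdgfrb, a fibroblast marker that T wells carried, was at 1.62 against 37.8 CPM, and Itgam, a myeloid integrin chain, at 15.8 against 0 CPM. Pdgfrb stood alone in its list, as the other 7 of 8 fibroblast markers were at 0 in random and target T wells. All 8 together summed to 0.662 to 8.16 CPM on the time-lapse T plates. HPC markers summed to 19.6 to 74.8 CPM on time-lapse against 0 to 2.38 CPM on random T plates. Most of that sum was Plac8, with 625.5 counts over the time-lapse T-classed wells. Sox4 had 81.5 counts there, Spi1 23.5, Cd34 18.5, Hoxa9 8 and Flt3 4. The 8 monocyte and neutrophil markers summed to 3.31 to 46.5 against 0 to 0.732 CPM, with S100a8, S100a9 and Mpo at 0 on the time-lapse plates. The 11 keratinocyte markers summed to 0 to 21.1 against 0 to 0.732 CPM, with Krt1, Krt10, Krt14 and Dsg1a at 0 on the time-lapse plates. The part of these in the S100a4, S100a6 and Lgals7 levels was not tested.

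The other members did not all follow. In T-classed wells S100a10, Anxa2 and Lgals1 were also called lower on time-lapse plates, which with the 3 genes above makes 6 of 7 members with enough counts, where 10.2% of 8182 genes were called lower and 9.53% higher. The list was chosen on this contrast, so nothing is read from that count. A call between plates needed a difference of at least 1 and at least 85% of time-lapse plates beyond every random plate. Lgals1 measured 2749.7 to 3037.3 CPM on random and 887.1 to 1550.8 CPM on time-lapse plates (log2 difference -1.28), with a count in every well. Anxa2 measured 319.8 to 388.1 CPM on random and 41.8 to 123.9 CPM on time-lapse plates (-2.26), with a count in 90.5% of wells. S100a10 measured 40.4 to 60.7 CPM on random and 0 to 15.4 CPM on time-lapse plates (-4.51), where 9 plates had no S100a10 count at all. Of its 65 time-lapse counts, 63 were in 7 wells that also carried genes of another line and 2 in all other T-classed wells. S100a11, below the minimum, had 37 counts in 29 random wells and 18 counts in 9 time-lapse wells. Anxa5 overlapped the random level, at 27.4 to 31.5 CPM on random and 18.9 to 49.6 CPM on time-lapse plates (0.24, range -0.71 to 0.83). Anxa1 was at or below 6 CPM on both, and Lgals3 had 0 counts in random and 4 in time-lapse T-classed wells.

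**Figure D2:**
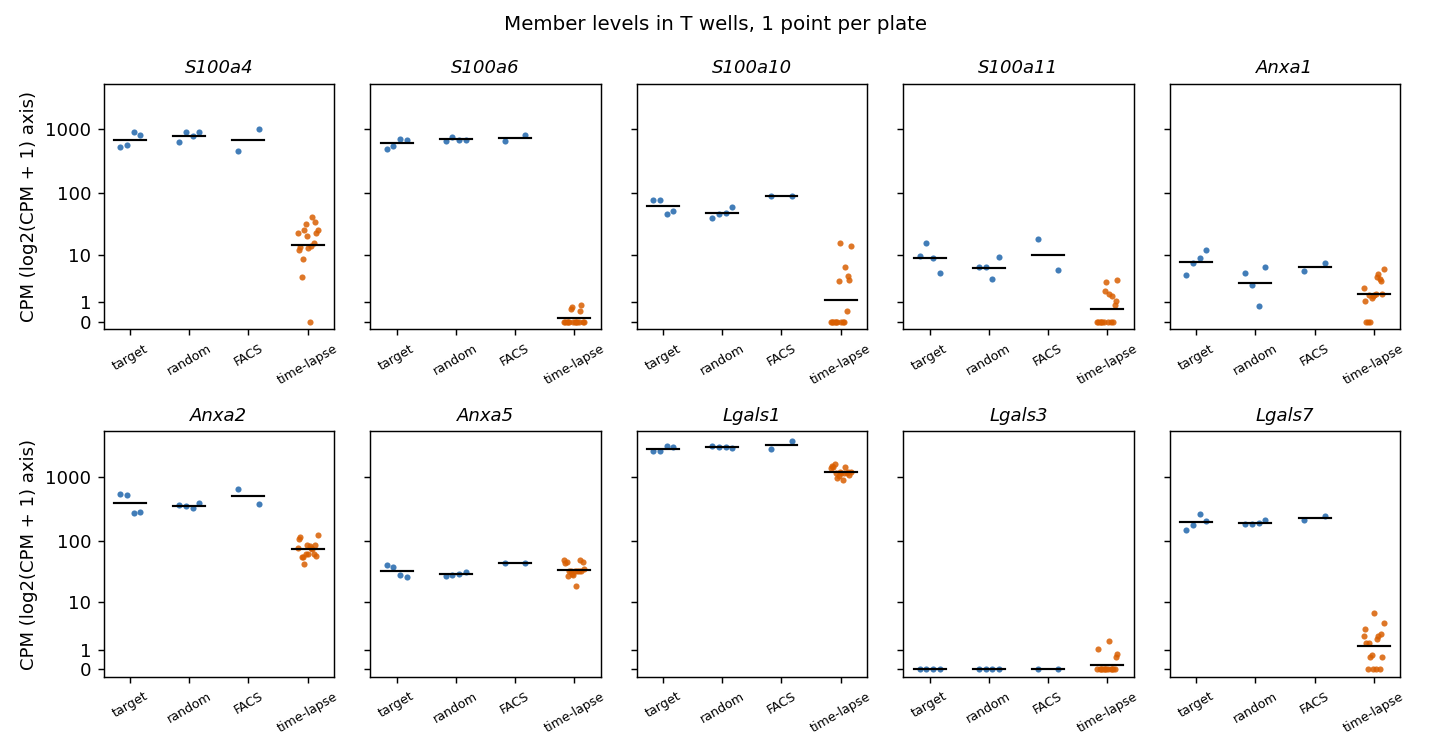
Level of each member in T wells (by label on target plates, by class elsewhere), in CPM on a log2(CPM + 1) axis, 1 point per plate, with time-lapse plates in orange and means of log2(CPM + 1) as bars. On time-lapse plates S100a6 lies between 0 and 0.836 CPM and Lgals7 between 0 and 6.53 CPM, while Anxa5 at 18.9 to 49.6 CPM overlaps the other plates.

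In leukemia-classed wells none of the 7 members with enough counts was called between time-lapse and random plates, where 0.894% of 7721 genes were called higher and 1.01% lower. S100a4 measured 168.5, 132.3, 102.05 and 204.7 CPM on random plates and 3.64 to 215.8 CPM (median 96.6) on time-lapse plates (log2 difference -0.98, range -5.47 to 1.07). Time-lapse plate 10 was the lowest, with S100a4 in 1 of 28 leukemia-classed wells. The same plate was also lowest for Anxa2 (42.5 CPM, others 129.4 to 276.1 CPM), S100a11 (35.2 CPM, others 38.5 to 229.3 CPM) and Lgals1 (947.9 CPM, others 1107.9 to 1516.4 CPM). S100a10 measured 145.2 to 462.8 CPM on time-lapse and 402.9 to 515.5 CPM on random plates (-0.61), with 13 of 16 time-lapse plates below every random plate. The Anxa1 difference was -0.93, with 13 of 16 time-lapse plates below every random plate, and passed the call at -1.04 when random plate 3 was left out. Lgals1 was below every random plate on 14 of 16 plates, but its difference was only -0.22.

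In HPC-classed wells the S100 members were not called. S100a4 measured 518.1 to 768.7 CPM on random and 562.01 to 1011.9 CPM on time-lapse plates (log2 difference 0.31), and S100a6 126.2 to 209.2 and 71.1 to 313.2 CPM (-0.02). For S100a6 the interval of the ratio of summed counts, random over time-lapse, was 0.911 to 1.1. It covers counting error only and leaves out the wider spread between plates. For S100a10 (0.28) 12 of 16 time-lapse plates lay above every random plate and 0 below, and for S100a11 (0.18) 7 lay above and 1 below. Anxa1 was the 1 of 7 members with enough counts called higher, where 4.37% of 8350 genes were called higher and 8.25% lower. It measured 48.4, 80.2, 35 and 51.1 CPM on the random plates and 66.8 to 285.4 CPM (median 128.2) on the time-lapse plates, of which 14 of 16 lay above every random plate (1.28, range -0.26 to 2.99). The call was lost with wells weighted equally (1.17) and without wells that carried another line (1.21), where fewer plates lay above every random plate. Lgals3 had 4 counts in random HPC-classed wells and 49.5 counts in 19 time-lapse ones, with up to 34.7 CPM on a plate and 6 of 16 plates at 0. Monocyte and neutrophil markers summed to 77.4 to 128.03 CPM on random and 88 to 315.6 CPM on time-lapse HPC plates, and their part in the Anxa1 and Lgals3 values was not tested.

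**Figure D3:**
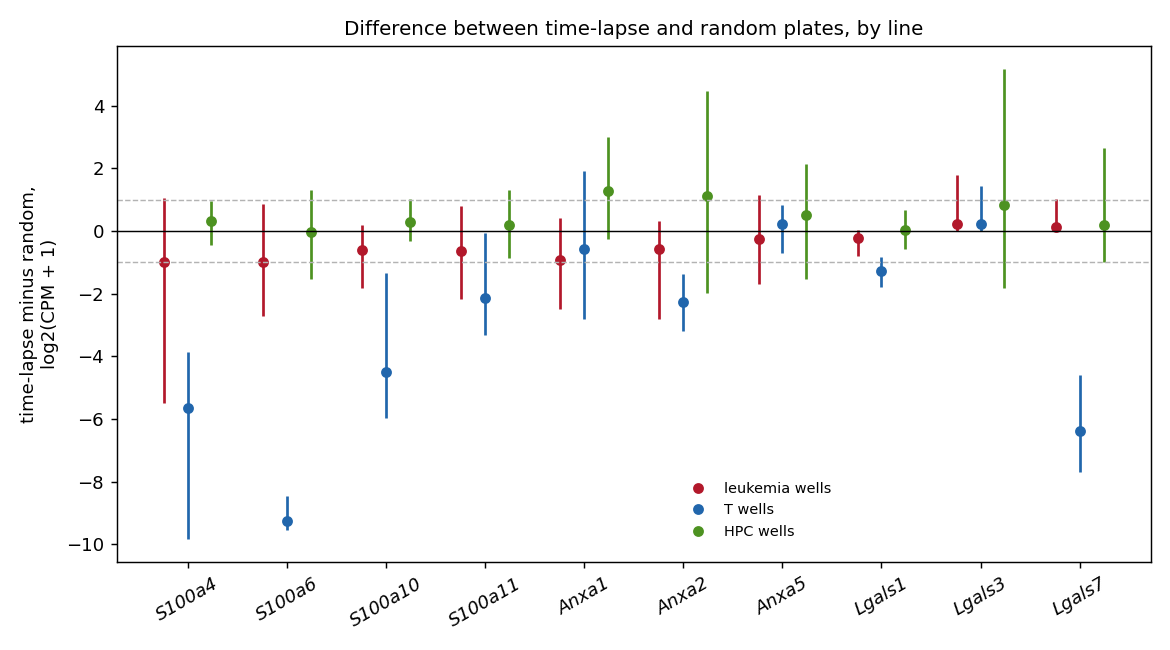
Difference between the mean log2(CPM + 1) of time-lapse and random plates for each member in leukemia (red), T (blue) and HPC (green) wells; lines span the lowest and highest difference over pairs of plates, and dashed lines mark 2-fold. S100a6 in T wells lies at -9.25, and the HPC values of the 4 S100 genes lie between -0.02 and 0.31.

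Relatives and partners of the members were followed in 5 lists. Of 12 other S100 genes in the table, 2 passed the minimum for T against leukemia. S100a1 was called lower in T and in HPC than in leukemia wells (log2 differences -3.76 and -3.07, with 21.1 CPM in leukemia wells). Of the other annexins, Anxa3 was at 40.4 CPM in target HPC wells and at 0 in the other lines, and Anxa11 was higher in T (1.66) and HPC (1.31) than in leukemia wells. Among other galectins, Lgals9, a ligand of the receptor Havcr2, was highest in T (181.7 CPM), lower in HPC (61.7 CPM) and lowest in leukemia wells (9.07 CPM), and the galectin-related Lgalsl was at 16.6 CPM in leukemia and 0 in T wells. For T minus leukemia, 1 of 3 other annexins tested was called higher and 0 lower, 1 and 1 of 3 other galectins, 1 and 0 of 10 partner and membrane repair genes, and 1 and 3 of 13 galectin ligand and sugar chain genes, beside 14.8% higher and 12.2% lower over all genes. For HPC minus leukemia these counts were 2 and 0 of 4, 1 and 1 of 3, 1 and 1 of 10, and 7 and 2 of 15, beside 13.1% and 12.7%. Cd7, a glycoprotein bound by Lgals1, was at 403.1 CPM in leukemia and 0.708 CPM in T wells. Spn (CD43), another such glycoprotein, was at 84.6 CPM in HPC against 2.55 CPM in T wells. Lgals3bp, a secreted protein that binds galectins, was at 59 CPM in HPC, 14.9 CPM in T and 0 in leukemia wells.

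Between time-lapse and random T-classed wells genes of these lists were called in both directions, where over all genes 9.53% were called higher and 10.2% lower. Of 4 other annexins tested, Anxa4 was called higher (1.40) and Anxa6 lower (-1.12). Lgals9 was called higher, at 579.6 against 177.6 CPM (1.63), as was Lgals3bp, at 52.7 against 13.9 CPM (1.82). Of 10 partner and membrane repair genes tested, 2 were called lower and 0 higher, a share near that over all genes: Ahnak, a giant scaffold bound by the S100a10 and Anxa2 complex, at 5.31 against 53.5 CPM (-3.53), and Capn2, a calcium-dependent protease, at 9.70 against 93.3 CPM (-3.20). The median difference of the partner list was -0.38 against -0.02 over all genes tested. In HPC-classed wells, where 4.37% of all genes were called higher and 8.25% lower, genes of the lists were again called in both directions. Ahnak was called higher (478.3 against 128.9 CPM, 1.86), and Anxa3 (-1.76), Lgals9 (-1.23), Lgals3bp (-2.77), Cacybp (-1.13) and Plscr1, a phospholipid scramblase (-1.08), were called lower. In leukemia-classed wells no gene of the 5 lists was called.

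The genes with the most similar levels over 72 plate and line units were ranked by Pearson correlation of log2(CPM + 1) among 6321 genes. The units share plates and total counts, and the low level in time-lapse T-classed wells is part of the pattern. S100a6 was close to Ripk3 (0.949), Cyba (0.904), Ptbp3 (0.901) and Padi2 (0.892). Ripk3, a kinase of necroptosis, was at 38.7 CPM in random T, 47.7 CPM in random HPC and 0 in random leukemia wells, and at 0.126 CPM in time-lapse T-classed wells. Lgals7 was closest to Bcar3 (0.936), Mab21l2 (0.929), Tex19.1 (0.920), Thy1 (0.919) and Sit1 (0.906), all higher in T than in leukemia and HPC wells of the random and target plates. S100a4 was close to Clta (0.897), Plec (0.881) and Gdi2 (0.870). The correlation of S100a4 with S100a6 was 0.889, beside 0.298 with Lgals7. With the other members it ran from -0.398 (Anxa2) to 0.690 (S100a10).

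In PBMC wells, which hold far fewer counts, S100a10 was the member found most often. It had a count in 40.7% of wells (interval 35.4% to 46.1%), and the 8 plates ran from 141.8 to 458.4 CPM. S100a11 followed with 64 wells (18.9%) and Lgals1 with 47 (13.9%). The other 7 members had a count in 3 to 18 wells: S100a6 in 18, S100a4 in 16, Anxa2 in 15, Lgals3 in 14, Anxa5 in 11, Anxa1 in 8 and Lgals7 in 3. The Lgals7 wells were too few to read a cell type from.

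PBMC wells were clustered without S100, annexin and galectin genes, and clusters were named from markers only where their leading genes did not go against the name. In this check of leading genes, S100a8 and S100a9 did count as neutrophil markers. Of the clusters, 2 were T-like (62 wells led by Cxcr6 and Rora, and a larger one with Lef1, Il7r and Tcf7 among its leading genes), 2 were B-like (86 wells together), and 2 with 40 and 32 wells were left unnamed. S100a10 was found in 39 of 62 wells (62.9%, interval 49.7% to 74.8%) of the Cxcr6 and Rora cluster, 39.5% of wells (30.7% to 48.9%) of the other T-like cluster and 16 of 86 B-like wells (18.6%, 11% to 28.4%). S100a11 was in 38.7% (26.6% to 51.9%) and 5.88% (2.40% to 11.7%) of the T-like clusters, whose median totals were 2764 and 2195 counts. After thinning to 1000 counts these shares were 11.3% and 0.840%, and those of S100a10 40.3% and 21%. Lgals1 was in 12 and 7 wells of these clusters. The T-like clusters were unevenly spread over plates. On plates 1 and 2 the Cxcr6 and Rora cluster held 11 of 14 and 11 of 13 T-like wells. Both T-like clusters had at least 5 wells on plates 3, 4, 5, 7 and 8. On each of these plates S100a11 and S100a10 were higher in the Cxcr6 and Rora cluster. S100a11 measured 107.98 to 206.8 CPM there, against 0 to 64.2 CPM in the other T-like cluster. The S100a11 levels rest on 32 and 9 counts over all plates. Anxa1 had no count in any T-like well, which allows a share of up to 2.02%, and S100a6 and S100a4 had 17 and 20 counts in 8 and 7 of them.

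The 40-well unnamed cluster, led by S100a9, S100a8, Hmox1, Lgals3 and Gzma, held 78 of the 86 Lgals3 counts and 78 S100a4 counts. S100a9 and S100a8 were each found in 1 of its 40 wells. With S100 genes left out, 8 NK (natural killer), 3 monocyte and 0 neutrophil markers passed the marker rule in it. That rule asked for a count in at least 20% of its wells and 1.5 times the share elsewhere. The cluster was left unnamed because its leading genes held 2 NK markers and 3 of other types, S100a8, S100a9 and Cd14. S100a8 and S100a9 tipped this balance. A few wells carried the Lgals3 and S100a4 counts. On plate 1, a well of this cluster had 21 counts of S100a4, 11 of S100a6, 15 of Lgals3 and 30 of Cd14, a monocyte receptor for bacterial lipopolysaccharide, and another had 17 of S100a4, 48 of Lgals3 and 11 of Cd14. A further well there had 31 counts of S100a4 and 0 of Lgals3 and Cd14. S100a8 was found in 2 PBMC wells in all, and the one with nearly all of its counts, on plate 7, also held 15 counts of S100a11 and 13 of S100a6. The 3 highest wells held 80.2% of Lgals3, 64.5% of S100a4 and 9.43% of S100a10 counts, so S100a10 was the most evenly spread of these 3. In this cluster S100a10 was found in 28 of 40 wells and Anxa2 in 10 of 40, where 2 T-like wells held Anxa2.

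**Figure D4:**
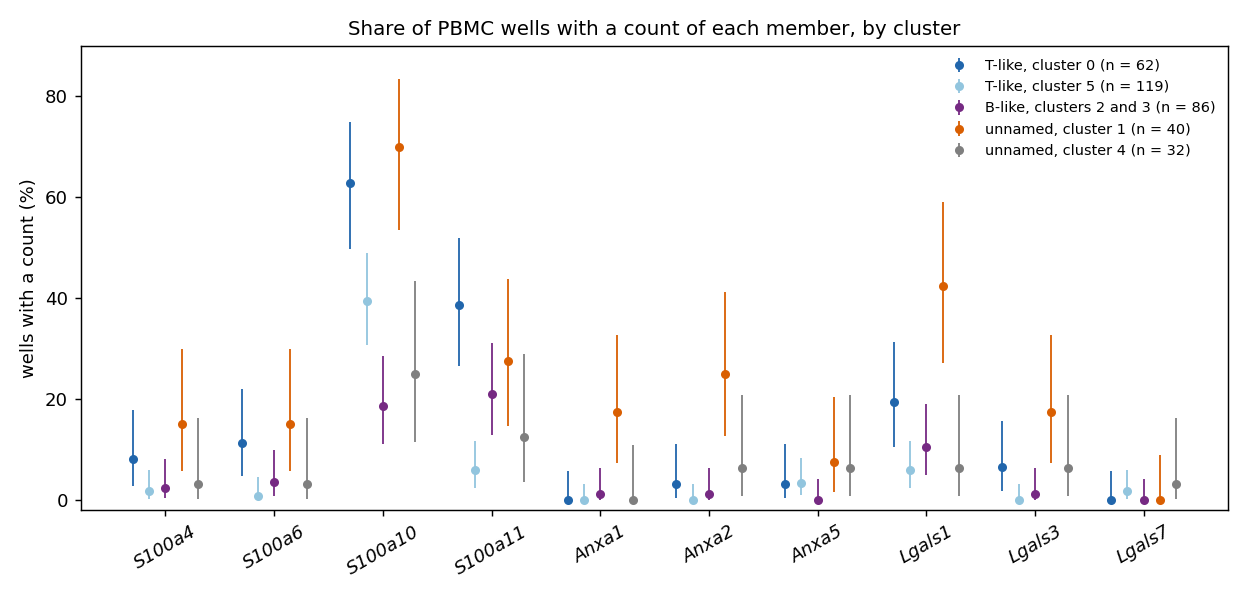
Share of PBMC wells with at least 1 count of each member, in percent, by cluster; bars are exact Clopper-Pearson 95% intervals, which cover counting error only. S100a10 is found in 62.9% and 39.5% of the T-like clusters and in 18.6% of B-like wells, and Lgals7 in at most 3.12% of any cluster.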

How the data were processed

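The tables list 319 target wells (126 leukemia, 120 T and 73 HPC), 330 random, 1008 time-lapse, 179 FACS and 346 PBMC wells. In the random wells 100 were classed leukemia, 119 T and 111 HPC, and in the time-lapse wells 429, 316 and 263. Values are the deposited expected counts: molecules per gene and well, made by the authors and not scaled between wells. Per the submitters' processing notes, bcl2fastq and STAR were used with the build mm10. For the counter, the annotation and the use of strand, the entry is: not given in the sources used here. Among positive values 5.31% were not whole, so no count model was fitted for the calls. The intervals of ratios did round the summed counts and treat them as plain counts, and thinning rounded the counts of each well.

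Counts were summed per plate and line, scaled to 1000000 (CPM) and compared as log2(CPM + 1), within plates for lines and between plates with at least 5 wells for time-lapse against random. Rn45s took 11.6% of cell line counts. A line class was the highest Spearman correlation with target profiles over 4113 genes of at least 50 CPM. A well with 20% or more of another line's score was called mixed, in place of a doublet caller. Intervals are exact and cover counting error only. On simulated counts over 24781 genes, the call rule found 149 of 150 strongly changed genes in the target design and 150 of 150 in the time-lapse design. It called 0 of 7333 unchanged ones in each. Genes given a smaller change are not in these numbers. The simulated counts held counting error only, around the pooled profile of target T wells, with no spread between plates or cells. They therefore give no error rate for the rule on the real plates.

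For PBMC, 339 wells with at least 300 genes were kept and clustered (scanpy 1.11.5, igraph 0.11.9, 2000 variable genes, 30 components, 15 neighbours, resolution 1) into T-like clusters of 62 and 119 wells, B-like clusters of 26 and 60, and unnamed ones of 40 and 32. How clusters were named was settled with their genes already in view. Scripts ran in python 3.11.15 (pandas 2.3.3, numpy 2.4.6, matplotlib 3.10.9, scipy 1.17.1). All 10 members are named throughout, list genes where called, and, of the 5 genes most like S100a4, S100a6 and Lgals7, all but some that are not reported here. Members and lists were chosen with earlier results of these data known. Alternatives were a pseudocount of 10 CPM, totals without Rn45s, equal weight per well, no mixed wells, target wells as the comparison, no minimum level, each plate left out, thinning and all listed PBMC wells.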

Additional observations from a re-analysis of the deposited data

Results flagged for a closer look

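Plate values that stood apart from the others of their group were looked for in 55 groups of 4 to 10 plates, and 6 were found, where chance gives about 1 in 20 groups. In HPC-labelled target wells, S100a10 was at 206.6 CPM on plate 1 (other plates 302.9 to 313.9 CPM). Anxa2 was at 77 CPM on plate 4 (others 0 to 1.82 CPM), the plate with 3 wells that did not resemble HPC cells. Anxa5 was at 9.06 CPM on plate 4 (others 16.4 to 16.9 CPM). On PBMC plate 1, S100a4 was at 646.9 CPM (others 0 to 184.99 CPM), Anxa5 at 140.6 CPM (others 0 to 25.1 CPM) and Lgals3 at 590.65 CPM (others 0 to 72.4 CPM). The 3 wells with most S100a4 counts, all on that plate, held 64.5% of its PBMC counts.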

How the results depend on the processing

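Line differences were taken within plates and so are paired by plate. For time-lapse against random wells, no paired analysis was possible because they lie on separate plates. Over all recomputed values, none reversed a called direction, and 33 values of single members and 2 of the genes below moved by more than the plate spread or interval. With a pseudocount of 10 CPM the time-lapse minus random differences in T-classed wells became -6.10 for S100a6 and -4.09 for Lgals7, since the size rests on the value added to levels near 0. Leaving out 1 plate gave -9.29 to -9.20 for S100a6, -6.50 to -6.30 for Lgals7 and -5.76 to -5.38 for S100a4. The 17 line calls on target plates became 16 to 17, and the 4 other time-lapse calls 4 to 5. In all, 10 single calls changed. Besides those of Anxa5 and Anxa1 given above, Anxa5 in HPC wells was called on time-lapse against target plates (1.73), Anxa5 in HPC against leukemia was not called without target plate 4 (-0.96), and S100a11 in T wells (-2.13) was called with no minimum level. Without the 3 HPC-labelled target wells of another class, an alternative chosen after seeing the data, Anxa2 in HPC minus leukemia was -7.67. Depth limits low members: PBMC wells had a median of 2147 counts.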
